A study of Nothobranchius furzeri with 8 samples.

Results

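The 3 genes epd, ptgdsb and cst3, which encode proteins secreted into the fluids of the brain, were followed among the 23546 genes counted in the brain of the turquoise killifish Nothobranchius furzeri. They were chosen by name: each identifier is the one that the gene lists of the study pair with that symbol, namely Nfu_g_1_005244 for epd, Nfu_g_1_011468 for ptgdsb and Nfu_g_1_016132 for cst3. The lists hold genes picked for a difference between sponge-29 and wild-type fish in these same libraries, so the difference between the groups is given here as a description, and where a count of these genes past a threshold is printed, nothing is read from it. RNA from the brain of 4 wild-type fish (strain MZM-04/10p, libraries 42 to 45) and 4 sponge-29 fish (genotype kif5a::miR-29sponge, libraries 46 to 49) was sequenced, all at 12 weeks of age. The sponge-29 transgene is driven by a zebrafish kif5aa promoter, which is active in neurons, and its transcript carries eGFP and repeated binding sites that capture miR-29, and the study took fish of the first transgenic generation. The labels give a strain only for the wild-type fish, and the study names MZM-04/10 as the strain of its N. furzeri experiments. The labels give neither the sex of any fish nor the founder of each sponge-29 fish. The reads counted on genes numbered 21665735 to 24902251 in the wild-type libraries and 18014090 to 21081878 in the sponge-29 libraries, ranges that do not overlap.

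The brain is bathed in cerebrospinal and extracellular fluid, whose proteins come from the blood plasma and from cells of the brain and its coverings, among them the choroid plexus, the meninges and glia. Ependymin, the product of epd, is a calcium-binding glycoprotein of this fluid in bony fishes, made in goldfish by cells of the meninges. The gene ptgdsb is an ortholog of the lipocalin-type prostaglandin D synthase, which in mammals both makes a prostaglandin and carries retinoids and other small lipids, and which is abundant in mammalian cerebrospinal fluid. Cystatin C, encoded by cst3, is a secreted inhibitor of cysteine proteases such as cathepsins and is another major protein of mammalian cerebrospinal fluid.

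Among these genes epd stood far above the others per length. Levels between genes are given as RPKM, the read count divided by gene length and library total, as the authors deposited it. The gene model of epd is 1588 bases long. In wild-type, epd had 2640, 1076, 2973 and 2133 RPKM in libraries 42, 43, 44 and 45, a mean of 2205 ± 828 RPKM (SD, n = 4). In sponge-29 it had 3598, 4870, 4062 and 3360 RPKM in libraries 46, 47, 48 and 49, a mean of 3973 ± 666 RPKM (SD, n = 4). All sponge-29 fish lay above all wild-type fish, and wild-type library 43 was the lowest of the 8 by a wide margin. Over the mean of the 8 libraries, epd had the highest RPKM of any gene in the table (3089). It ranked 1 in every sponge-29 library and 2, 46, 2 and 5 in wild-type libraries 42, 43, 44 and 45. Its reads made up between 0.171% and 0.773% of all counted reads of a library.

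The lipocalin gene ptgdsb (gene model of 618 bases) had 172, 86.7, 146 and 135 RPKM in wild-type libraries 42, 43, 44 and 45, a mean of 135 ± 35.7 RPKM (SD, n = 4). In sponge-29 libraries 46, 47, 48 and 49 it had 250, 220, 181 and 178 RPKM, a mean of 207 ± 34.2 RPKM (SD, n = 4). The groups did not overlap, and library 43 was again the lowest. The highest wild-type fish (library 42) lay 6.02 RPKM below the lowest sponge-29 fish (library 49). The protease inhibitor gene cst3 (gene model of 375 bases) had 172, 193, 192 and 159 RPKM in wild-type libraries 42, 43, 44 and 45, a mean of 179 ± 16.4 RPKM (SD, n = 4). In sponge-29 it had 231, 267, 199 and 232 RPKM in libraries 46, 47, 48 and 49, a mean of 232 ± 27.6 RPKM (SD, n = 4). Here library 43 was the highest wild-type fish, and the gap between it and the lowest sponge-29 fish (library 48) was 5.96 RPKM. Per length, epd was above both other genes in all 8 fish. The order of ptgdsb and cst3 differed between fish, with ptgdsb higher in libraries 42 and 46 and cst3 higher in the other 6. On average cst3 was above ptgdsb by 44.2 RPKM in wild-type, more than the SD of either gene, and by 25.0 RPKM in sponge-29, less than the SD of either. The wild-type gap was widest in library 43 (193 against 86.7 RPKM). Without that library the wild-type means were 174 RPKM for cst3 and 151 RPKM for ptgdsb.

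**Figure D1:**
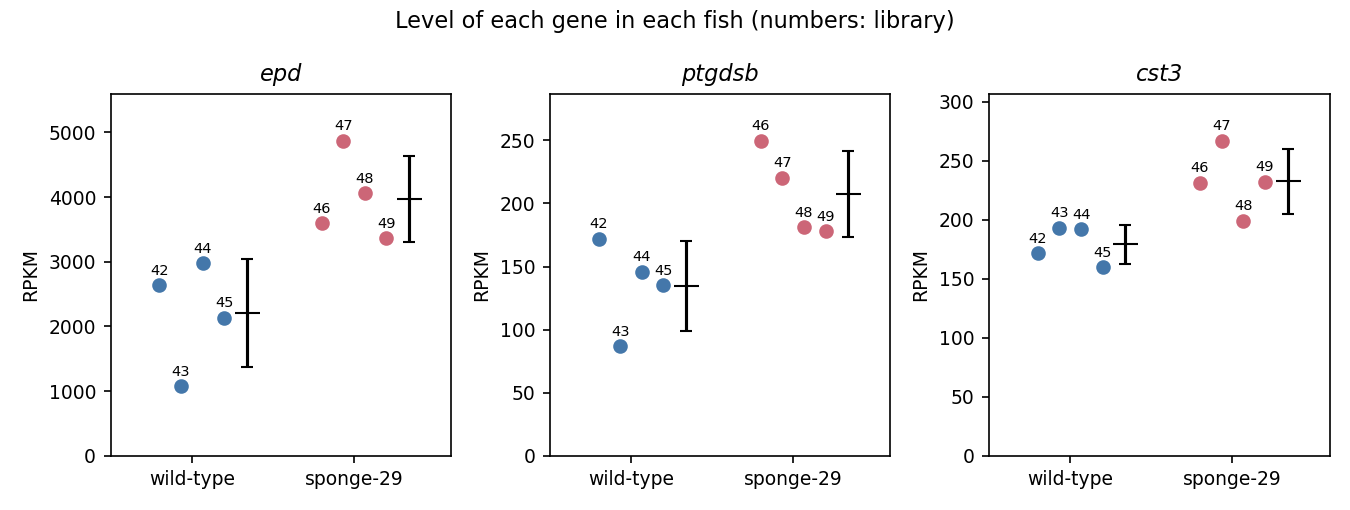
Level of epd, ptgdsb and cst3 in RPKM (y axis from 0) in each of the 4 wild-type (blue) and 4 sponge-29 (red) fish, labelled by library. Black marks give the group mean and SD. The sponge-29 fish lie above the wild-type fish in each panel, and wild-type library 43 is the lowest fish for epd (1076 RPKM) and ptgdsb (86.7 RPKM) but not for cst3 (193 RPKM).

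To compare the groups, counts were scaled to library size with TMM factors (CPM, counts set to a common library total) and fitted with edgeR over the 19536 genes with enough counts, among which all 3 were kept. The level of epd was 3467 ± 1303 CPM in wild-type and 6379 ± 1018 CPM in sponge-29 (SD, n = 4), which on the log2 scale is a fold change of 0.88 with a standard error of 0.28, or 1.84-fold. That of ptgdsb was 82.5 ± 21.7 CPM in wild-type and 130 ± 22.1 CPM in sponge-29, a log2 fold change of 0.65 (standard error 0.20), or 1.57-fold. That of cst3 was 66.4 ± 5.86 CPM in wild-type and 88.2 ± 10.7 CPM in sponge-29, a log2 fold change of 0.41 (standard error 0.10), or 1.33-fold. The gene with the largest difference was thus also the one whose difference was least precise. Of the 3 genes, 1 (cst3) passed the quasi-likelihood test of edgeR at a threshold of 0.05 on the adjusted p (Benjamini-Hochberg), beside 12.0% of all genes tested, the sum of 6.15% higher and 5.84% lower in sponge-29. All 3 had groups that did not overlap in CPM with sponge-29 above, beside 11.4% of all genes. The choice of these genes used this contrast, so both counts are a description.

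The size of the difference for epd and ptgdsb rested in part on wild-type library 43. Its epd level was 41.4% of the mean of the other 3 wild-type fish, and its ptgdsb level 57.0%, while its cst3 level was 110% of it. Without it, the log2 fold change was 0.65 (standard error 0.16) for epd and 0.49 (standard error 0.14) for ptgdsb, and that of cst3 was 0.44 (standard error 0.11). The ratio of the mean RPKM of sponge-29 to that of wild-type went from 1.80 to 1.54 for epd and from 1.54 to 1.37 for ptgdsb. How many of the 3 genes passed the threshold moved with the processing. With all libraries kept, cst3 passed in 8 of 9 alternatives, and epd and ptgdsb in 2 each. With each library's dependence on gene length removed, 0 of them passed (beside 4.98% of all genes higher in sponge-29), and 3 passed with DESeq2 (beside 10.4%) and with edgeR's likelihood ratio test (beside 4.86%). In the other alternatives with all libraries, from 886 (library totals) to 1290 (upper quartile factors) of 19536 genes passed higher in sponge-29. Without the filter on low counts 963 of 23134 did. With 1 library left out, 2 of the genes (epd and cst3) passed without library 43, beside 5.52% of all genes higher in sponge-29, and 1 (cst3) without library 48, beside 5.04%. None passed without library 42, 44 or 45 (beside 2.86%, 2.31% and 1.11%) or without library 46, 47 or 49 (beside 3.46%, 1.21% and 2.55%).

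**Figure D2:**
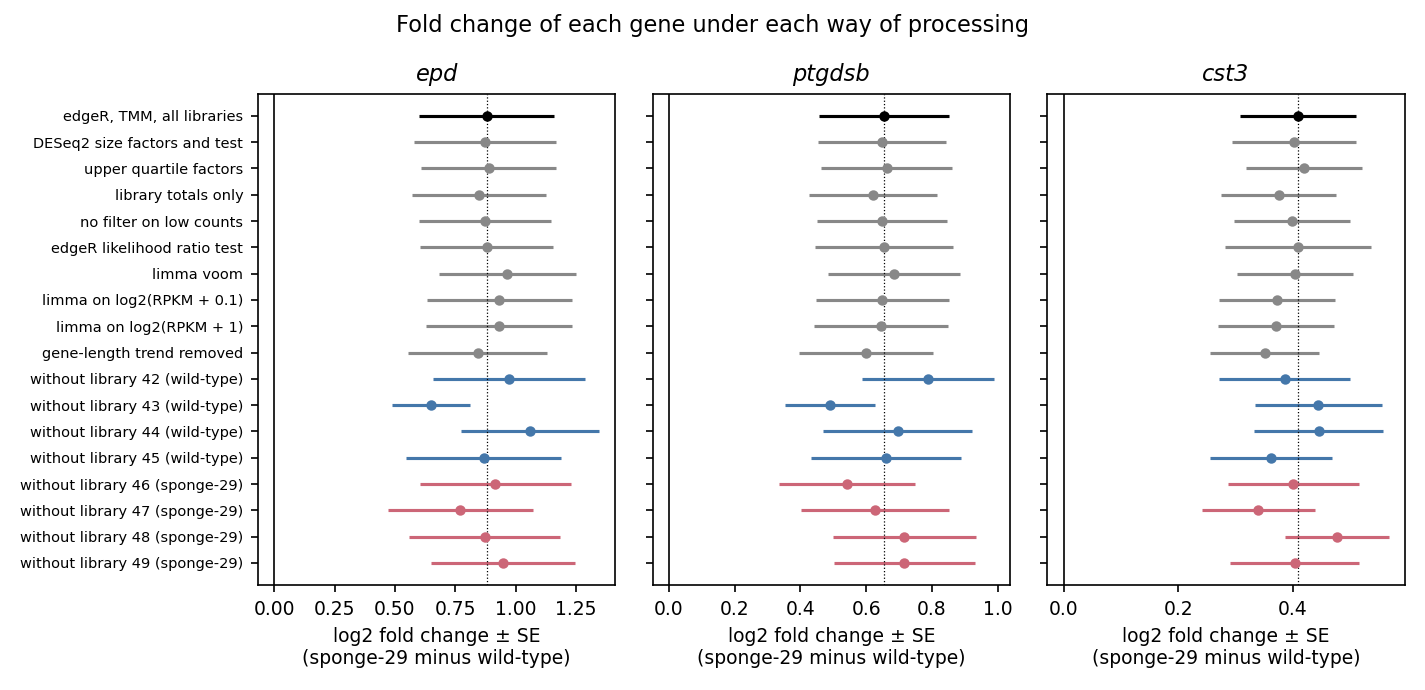
Log2 fold change of sponge-29 minus wild-type (x axis, with its standard error) for epd, ptgdsb and cst3 under each way of processing (rows), with fits that leave out a wild-type library in blue and a sponge-29 library in red. The values stay above 0 in all 17 alternatives, from 0.65 to 1.06 for epd, from 0.49 to 0.79 for ptgdsb and from 0.34 to 0.48 for cst3, and the lowest for epd and ptgdsb is that without library 43.

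Each of the 3 gene models is shorter than the median of the genes tested (2654 bases), and short genes as a class were slightly higher in sponge-29. The median log2 fold change was 0.08 for the 1235 genes of up to 500 bases, the class of cst3, and 0.10 for the 2279 genes from 500 to 1000 bases, the class of ptgdsb. It was 0.04 for the 4102 genes from 1000 to 2000 bases, the class of epd, and -0.12 for the 4314 genes above 5000 bases. With each library's trend with gene length removed, the log2 fold changes of epd, ptgdsb and cst3 were 0.84, 0.60 and 0.35, beside 0.88, 0.65 and 0.41 with it. With the trend removed 0 of the 3 passed the threshold, beside 4.98% of all genes higher in sponge-29. The part of gene length in these differences was not tested further.

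The 3 genes differed in their spread between fish of the same group, given as a description since the test behind the choice of the genes depends on this spread. The biological coefficient of variation, edgeR's estimate of the relative spread between fish beyond counting error, was 26.9% for epd, 20.4% for ptgdsb and 12.3% for cst3, against a median of 15.9% over all genes tested. On this measure epd was above 82.2% of genes, ptgdsb above 66.3% and cst3 above 28.7%. The SD of log2 CPM of epd was 0.66 in wild-type and 0.22 in sponge-29, that of ptgdsb 0.42 and 0.24, and that of cst3 0.13 and 0.18. The spread of epd and ptgdsb was thus larger in wild-type, where library 43 fell below the rest. Within sponge-29 it was also above that of cst3, by less (0.22 and 0.24 beside 0.18).

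Whether the 3 genes rose and fell together from fish to fish was examined on log2 CPM after the mean of each group was taken away, so that the group difference did not enter. Over the 8 fish, epd and ptgdsb had a Pearson's r of 0.81 (exact permutation test within groups, two-sided, p = 0.0729, adjusted over 3 pairs p = 0.219) and a Spearman's rho of 0.67 (exact permutation p = 0.102, adjusted p = 0.307). Without the 2 fish farthest from the median of epd (libraries 43 and 47), r was 0.14, and without library 43 alone it was 0.25, so that this relation rests on library 43. For epd and cst3, r was -0.06 (exact permutation p = 0.920, adjusted p = 0.920) and rho 0.12 (exact permutation p = 0.792, adjusted p = 0.875), and r was 0.25 without libraries 43 and 47 and 0.58 without library 43 alone. For ptgdsb and cst3, r was -0.05 (exact permutation p = 0.917, adjusted p = 0.920) and rho 0.07 (exact permutation p = 0.875, adjusted p = 0.875), and r was 0.53 without libraries 43 and 46 and 0.40 without library 43 alone. None of the 3 pairs passed the threshold, and the order of their r values changed when library 43 was left out.

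The genes whose fish-to-fish pattern was most like that of each member were ranked by the same measure among 18371 other genes with a mean of at least 1 CPM, and the named ones are those with a symbol. Symbols were at hand only for 1418 identifiers, from the study's gene lists, so genes without a symbol can lie closer than a named one. These correlations over 8 fish are a description. For epd the closest gene with a symbol was the iron carrier transferrin (tfa, Nfu_g_1_020367), with an r of 0.98 and rank 2. Its CPM was 4695, 2407, 5117 and 4242 in libraries 42, 43, 44 and 45, and 7386, 8971, 8244 and 6283 in libraries 46, 47, 48 and 49. Library 43 was the lowest wild-type fish and library 47 the highest sponge-29 fish for tfa, as they were for epd. Without library 43, r was 0.92 and tfa ranked 50. The next genes with a symbol were BX640461.1 (Nfu_g_1_009814, r of 0.95, rank 26) and the glial potassium channel gene KCNJ10 (1 of 2) (Nfu_g_1_013013, r of 0.93, rank 60). Without library 43 their r fell to 0.72 and 0.49, and they ranked 755 and 2429. The group difference of BX640461.1 ran opposite to that of epd, with 50.9 ± 9.93 CPM in wild-type and 14.2 ± 0.451 CPM in sponge-29 (SD, n = 4).

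For ptgdsb the closest gene of all was APOM (Nfu_g_1_009468), an apolipoprotein that itself belongs to the lipocalin family, with an r of 0.97 and rank 1, or 0.92 and rank 79 without library 43. APOM had 1618, 1230, 1544 and 1420 CPM in libraries 42, 43, 44 and 45, and 2138, 1961, 1887 and 1894 CPM in libraries 46, 47, 48 and 49. As with ptgdsb, libraries 42 and 46 were the highest of their groups and library 43 the lowest of all. By mean RPKM over the 8 libraries APOM ranked 3 of all genes (2611), so that epd and a lipocalin other than ptgdsb were both among the 3 genes with the highest level per length. The others were C3H1orf68 (Nfu_g_1_009864, r of 0.97) and zcchc24 (Nfu_g_1_002740, r of 0.96), with 0.91 and 0.88 without library 43. For cst3, 9 genes without a symbol ranked above the closest named one, syndig1l (Nfu_g_1_015106, r of 0.94). The mitochondrial ribosomal protein gene mrps11 (Nfu_g_1_014313) and mef2bnb (Nfu_g_1_008803) followed, each with an r of 0.90. Without library 43 these 3 values were 0.93, 0.91 and 0.90, and the ranks went from 10, 25 and 27 to 61, 99 and 114. No named gene was shared between the 3 sets, but with 3 genes in each this does not set the patterns apart. With ptgdsb, r was also 0.80 for tfa and 0.91 for KCNJ10 (1 of 2), and with epd it was 0.80 for APOM. Without library 43 these r values were 0.27, 0.83 and 0.27. An r of at least 0.8 was reached by 2.62% of the ranked genes with epd, 1.47% with ptgdsb and 1.25% with cst3. Without library 43 these shares were 2.04%, 2.49% and 2.80%, so that their order turned around.

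As a whole library, 43 differed from the other wild-type fish more than these differed from each other. The chi-square per degree of freedom is large where libraries differ beyond counting noise. It was 31.8 to 39.6 for the pairs with library 43 and 13.2 to 14.5 for the other wild-type pairs. Within sponge-29 it was 20.8 to 29.7 for the pairs with library 49 and 9.66 to 16.0 for the other pairs, so library 49 stood apart in its group too. Library 43 also stood apart from the other wild-type fish in some genes that mark cell types. ITGAM (Nfu_g_1_022803), the integrin subunit of myeloid cells, had 94.6 CPM in library 43 and 10.2, 11.7 and 13.4 CPM in wild-type libraries 42, 44 and 45, and between 4.95 and 16.2 CPM in sponge-29. Another leukocyte gene, bin2b, had 23.1 CPM in library 43 and between 11.6 and 14.3 CPM in the other wild-type fish. Of the remaining 2 genes of the list, ptpn22 (62.6 CPM in library 43, between 59.2 and 65.9 CPM in the other wild-type fish) was not higher there, and mrc1a (8.57 CPM) was lowest there. The same mrc1a identifier is also counted among the endocytic genes, so it does not stand for leukocytes alone here. The summed CPM of the 4 leukocyte markers was 189 in library 43, the highest of all fish, and none of the 4 was at 0. Without ITGAM the sum of the other 3 was 94.3 CPM in library 43 and between 83.1 and 90.2 CPM in the other wild-type fish, so the sum rested on ITGAM. The summed CPM of the 6 glial markers was lowest in library 43, at 333, against a highest value of 501 in wild-type and a range from 584 to 633 in sponge-29. This rested on KCNJ10 (1 of 2), which had 197 CPM in library 43, since the other 5 summed to 136 CPM there and to between 134 and 159 CPM in the other wild-type fish. Library 43 was also the lowest wild-type fish in the summed CPM of the other secreted proteins (6895), the endocytic genes (1530), and the neuronal (1330), meningeal and fibroblast matrix (511) and endothelial (146) markers described further on. These sums do not hold for each gene of a list. In library 43 the neuronal gene MAP1B (476 CPM) and the endocytic gene lrp1 (Nfu_g_1_010200, 805 CPM) were the lowest of the wild-type fish. The neuronal gene elavl2 (120 CPM) and the endocytic gene lrp2a (96.4 CPM) were the highest of the wild-type fish there. In whole brain, fewer cells of a type and less RNA per cell cannot be told apart. The part of these markers in the low epd and ptgdsb of library 43 was not tested.

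**Figure D3:**
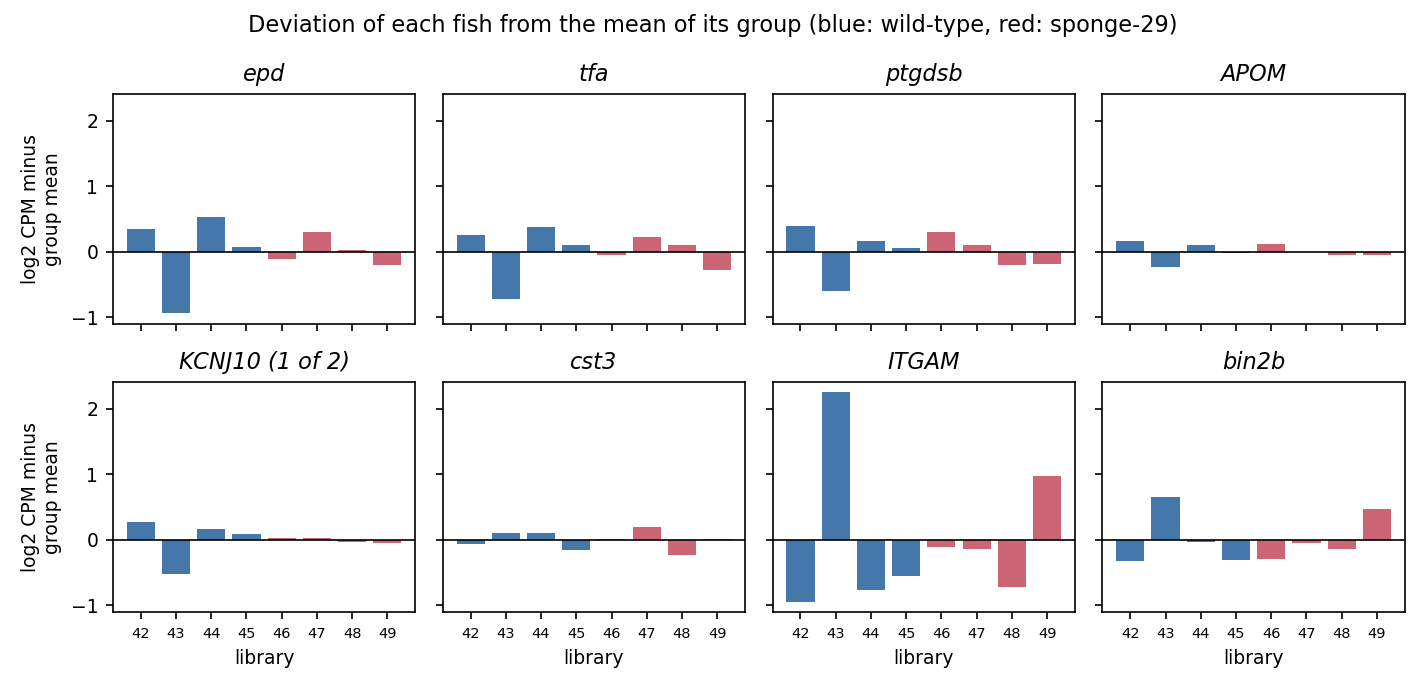
Deviation of each fish from the mean of its group, in log2 CPM (y axis), by library (x axis; wild-type blue, sponge-29 red), for epd, ptgdsb and cst3, the genes tfa, APOM and KCNJ10 (1 of 2), and the leukocyte genes ITGAM and bin2b. In library 43 epd (-0.95), tfa (-0.72), ptgdsb (-0.60) and KCNJ10 (1 of 2) (-0.53) lie below the group mean and ITGAM (2.25) and bin2b (0.66) above it, while cst3 is near it (0.11).

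Other genes were set beside the members in lists. Symbols were at hand for 1418 identifiers of the study's lists, which were drawn up on these libraries, so the directions and counts below follow in large part from that choice and are not independent evidence. The median log2 fold change over all 19536 genes was -0.01, and 6.15% of them passed the threshold higher in sponge-29 and 5.84% lower. With the length trend removed, 972 of the 19536 passed higher and 557 lower, and without library 43, 1085 of 19662 higher and 1040 lower. Of 13 other secreted proteins of plasma and brain fluid, all 13 had a positive log2 fold change (median 0.56) and 10 rose (adjusted p below the threshold in the quasi-likelihood test), or 7 with the length trend removed and 9 without library 43. The most abundant were tfa, the plasma protein gene AHSG, APOM and the copper oxidase ceruloplasmin (cp). Of these, tfa (0.91, standard error 0.22) and APOM (0.44, standard error 0.10) rose, and AHSG (0.46, standard error 0.13) and cp (0.61, standard error 0.23) did not pass. Of 12 genes of the early secretory pathway, which moves proteins from the endoplasmic reticulum to the Golgi, 11 rose and 1 fell (the coat gene SEC24A, named after its value was seen), with a median of 0.44. The 8 identifiers of endocytic receptors and adaptors were split, with 3 that rose, 3 that fell and a median of 0.19, or 3 that rose, 1 that fell and a median of 0.35 with the length trend removed.

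Markers of cells of the brain and its coverings, also drawn from the genes with a symbol, moved in different directions between the groups. Over all genes tested 6.15% rose and 5.84% fell, and the counts here are a description. With the length trend removed, 972 of all 19536 genes rose and 557 fell. Without library 43, 1085 of 19662 rose and 1040 fell, and with library totals in place of TMM 886 of 19536 rose and 1428 fell. Of 13 identifiers (10 symbols) listed as meningeal and fibroblast matrix markers, 11 fell and 0 rose (median -0.55), and 1 had a positive log2 fold change that did not pass. Not every gene of this list encodes matrix (bnc2 does not), and its laminin and collagen genes are not particular to meningeal cells. The list therefore does not stand for meningeal cells alone. Their summed level was between 511 and 613 CPM in wild-type and between 364 and 429 CPM in sponge-29. Which cells make epd in the killifish brain was not tested, so nothing on epd is read from these markers. With the length trend removed 5 of the 13 fell. Of 6 glial markers 5 rose and 1 had a negative log2 fold change that did not pass (median 0.45). Without library 43, 3 rose and 1 fell, and 3 rose with the length trend removed or with library totals in place of TMM. Of 8 neuronal markers 7 rose (median 0.54), with a summed level between 1330 and 1662 CPM in wild-type and between 1995 and 2354 CPM in sponge-29. Of 6 identifiers for endothelial markers 4 fell (median -0.58), or 2 with the length trend removed, and 1 had a positive log2 fold change that did not pass. Of the 4 leukocyte markers 1 rose and 1 fell (median -0.54). No gene of these lists was at 0 over the 8 libraries. The neuronal genes MAP1B, stmn2a, neurod and snap25a, which mark the brain that the labels name, had between 126 and 570 CPM on average in wild-type. The part of these cell types in the levels of epd, ptgdsb and cst3 was not tested.

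**Figure D4:**
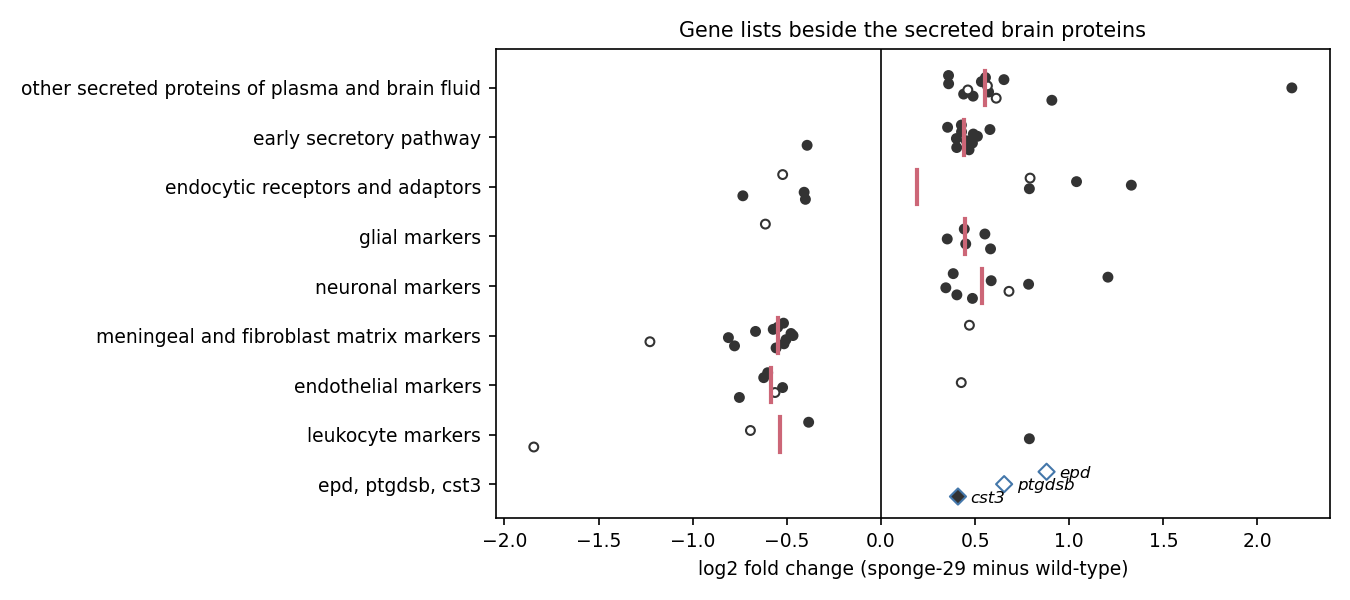
Log2 fold change of sponge-29 minus wild-type (x axis) for the genes of each list (circles; red bars give the list's median) and for epd, ptgdsb and cst3 (diamonds), filled where the quasi-likelihood test was passed. The members (0.88, 0.65 and 0.41) lie on the side of the other secreted proteins (median 0.56). Of the 13 meningeal and fibroblast matrix markers, 12 lie on the other side and 1 on the side of the members (median -0.55).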

How the data were processed

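Single reads of 50 bases were mapped by the authors with TopHat 2.0.6 to the N. furzeri genome and counted on genes with featureCounts 1.4.3-p1, and the authors deposited read counts without normalization and RPKM values. How reads shared by similar genes or by strand were counted is not given in the sources used here, so values of any near-identical copy of a member are uncertain. The deposited RPKM use the library totals of the counted reads, since the gene lengths they imply were whole within 0.02 for all 23134 genes with counts. All columns were mapped to a sample. Symbols come from the identifier and symbol columns of the study's lists, whose fold changes, p-values and FDR values were not used. Of the identifiers, 0 were found in the RefSeq gene table, so no position or sequence is given.

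Counts were filtered with filterByExpr (minimum count 10), scaled by TMM and fitted with edgeR 4.0.16 in R 4.3.3 (quasi-likelihood F-test, Benjamini-Hochberg adjustment, threshold 0.05). Log2 CPM used a prior count of 2. The steps were tested on simulated data. Replicate libraries of a group differed beyond counting noise (smallest chi-square per degree of freedom 9.66), and nothing in the labels says more of how the fish were kept apart. The p-values of the group comparison thus set a difference against the spread between these libraries only. Members and lists were chosen with earlier results of these data known. Named genes are the members, the 3 genes with a symbol most like each member, and at most the 4 most abundant of each list. Outside this rule, SEC24A, elavl2 and lrp2a were named for their values. Alternatives were DESeq2 1.42.0, limma 3.58.1 (voom, and log2(RPKM + 0.1) or log2(RPKM + 1)), other scaling, no filter, edgeR's likelihood ratio test, removal of the gene-length trend (natural spline, 4 degrees of freedom) and each library left out. The likeness, list and group-mean values without library 43, the lists under other settings, and the marker sums without KCNJ10 (1 of 2) or ITGAM, were added after seeing the data. At 18014090 to 24902251 counts per library, each member had at least 1266 counts, so counting error was small beside the spread between fish.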

Additional observations from a re-analysis of the deposited data

Results flagged for a closer look

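No fish stood apart from the other 3 of its group in epd, ptgdsb or cst3 by Dixon's test on CPM at its 95% critical value. Among the 82 groups tested over all named genes, 4 had such a fish, and chance alone flags about 1 in 20. ITGAM was high in wild-type library 43 (94.6 CPM, a gap of 0.962 of the group's range). In the same library AHSG was low (1434 CPM, a gap of 0.888 of the range) and so was fn1b, a fibronectin gene (73.1 CPM, a gap of 0.896 of the range). The coat protein gene copeb was high in sponge-29 library 49 (154 CPM, a gap of 0.941 of the range).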

How the results depend on the processing

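The log2 fold changes of epd, ptgdsb and cst3 stayed positive in all 17 alternatives. Leaving out 1 library gave 0.65 to 1.06 for epd, 0.49 to 0.79 for ptgdsb and 0.34 to 0.48 for cst3. The r of epd and ptgdsb between fish of 1 group lay between 0.25 and 0.94 with 1 library left out, that of epd and cst3 between -0.31 and 0.58, and that of ptgdsb and cst3 between -0.36 and 0.40, none past the threshold. The number of genes past the threshold, 2341 of 19536 (1201 higher and 1140 lower in sponge-29), was 3791 with DESeq2 (1848 higher, 1943 lower) and 1529 with the gene-length trend removed (972 higher, 557 lower). Of the calls, 51.3% were higher in sponge-29, against 38.3% with library totals in place of TMM and 63.6% with the length trend removed. Leaving out 1 library gave 427 to 2125 genes, of which 218 to 1085 higher and 202 to 1040 lower, the lowest (427) when wild-type library 45 was dropped, and 441 when sponge-29 library 47 was. The causes were not tested. No paired analysis was possible because the labels give no number that wild-type and sponge-29 fish share. With 4 fish in a group, the spread of epd is known only roughly.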
